A study of Mus musculus with 384 samples.

Results

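Zymosan, a particle prepared from yeast cell wall, was given to mouse macrophages without Myd88, and the transcripts were counted for 4 h. The 14 wells described here are the Myd88 KO wells labelled Zymosan that were lysed 0.5, 1, 1.5, 2, 2.5, 3 or 4 h after the ligand, out of 384 wells in the series. They were chosen by genotype, ligand and time label alone, with 1 well per time on each of 2 KO plates, here called KO replicates 1 and 2. Each time was set against the 12 time 0 wells of the same plate as 1 pool, which makes 24 KO time 0 wells in all.

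The donors of the marrow were male mice of the C57BL/6 strain, 13 weeks old and either Myd88 KO or WT. All cells, controls included, had taken up a pool of pathway reporter viruses on day 4 and were replated on day 9. The other groups used here are KO wells given LPS (14 wells), KO wells given TDB (14 wells, an agent printed as the labels give it), KO wells given Pam3Cys, R848 or CpG (42 wells), and WT wells given Zymosan (14 wells), each over the same 7 times and on 2 plates per genotype. Whether each plate had its own mouse or culture is not in the labels, so the p-values measure the spread between plates, which may be technical. A genotype was never on a plate with the other genotype, so genotype and plate cannot be told apart.

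Zymosan is recognised by several receptors at once. Dectin-1 (Clec7a) binds its beta-glucan and signals through the kinase Syk and the adaptor Card9, while Toll-like receptor 2 (Tlr2) signals through MyD88, the adaptor used by most Toll-like receptors and by the interleukin-1 receptor. Toll-like receptor 4, the receptor for LPS, can also signal through a second adaptor, TRIF, which leads to the transcription factor IRF3 and to type I interferon. Transcripts that answer such signals are often grouped as immediate early genes, NF-kB targets, their feedback inhibitors, IRF3 targets and interferon-stimulated genes, and the results follow that order.

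Expression was read from transcript 3′ ends as whole-number counts per gene and well. The 14 wells held 79333 to 455895 counts, with a median of 288644, against 71720 to 767167 over all 384 wells, with a median of 342561. The 1 h well of KO replicate 2 was the shallowest of the 14, at 79333 counts, and the 1.5 h and 0.5 h wells of that replicate held 163214 and 198040. Myd88 transcripts were counted at 0 to 32.7 CPM (counts scaled to the same library total, as is usual for sequencing), with a median of 13.5, in the KO Zymosan wells and at 14.5 to 93.0 CPM, with a median of 43.2, in the WT Zymosan wells. A 3′ tag outside the deleted part of the gene does not check the deletion. The 23 macrophage identity genes in the table (Csf1r, Cd68, Lyz2 and others) summed to 12013 to 13892 CPM in the early, middle and late Zymosan sums, against 14518 and 14846 CPM at time 0. Of other cell types, neutrophil markers summed to 108 to 296 CPM with Mpo and Elane at 0, against 167 and 208 CPM at time 0. Members that were counted included S100a9, S100a8 and Cxcr2, with medians of 66.8, 51.9 and 30.0 CPM over the 24 KO time 0 wells. Markers of B cells, T and NK cells, dendritic cells and fibroblasts summed to at most 27.6 CPM, with Cd79a, Cd3e, Flt3 and Col1a1 at 0. Acta2, Xcr1, Siglech and Cd79b of these lists were counted in some KO time 0 wells. In bulk wells, fewer cells of a type and less RNA per cell cannot be told apart.

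By 0.5 h 6 genes had risen, and the number of genes called grew at each later time. A gene was called when its adjusted p was under 0.05 in edgeR's quasi-likelihood test over the 10167 genes tested. At 0.5 h there were 6 higher and 0 lower genes (0.059% of the genes tested were called, and 206 genes had an unadjusted p under 0.05). There were 33 higher and 3 lower at 1 h (0.354%, with 0.0295% lower), 51 and 14 at 1.5 h (0.639%), and 68 and 3 at 2 h (0.698%, with 0.0295% lower). Later wells gave 80 higher and 32 lower at 2.5 h (1.1%), 127 and 32 at 3 h (1.56%), and 187 and 40 at 4 h (2.23%). These comparisons share the time 0 wells, and the depth of the wells differed between times, so the counts describe what could be called and not the size of the response. They moved with the plates in the fit. A fit without a plate, here and below, leaves a single library in each group of that genotype. Its calls then carry no spread between the plates of that genotype. Without KO replicate 1 the totals called were 50, 328, 202, 71, 134, 146 and 238 from 0.5 to 4 h, and without KO replicate 2 they were 11, 39, 52, 65, 74, 109 and 164. The WT plates enter these comparisons through the shared estimate of the spread, the filter on low counts and the scaling. Without a WT plate the totals were 3 or 4 at 0.5 h, and 18 at both 1 and 1.5 h. They were 28 or 29 at 2 h and 39 or 40 at 2.5 h. At 3 h there were 64 or 65, and at 4 h 112 or 116.

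**Figure D1:**
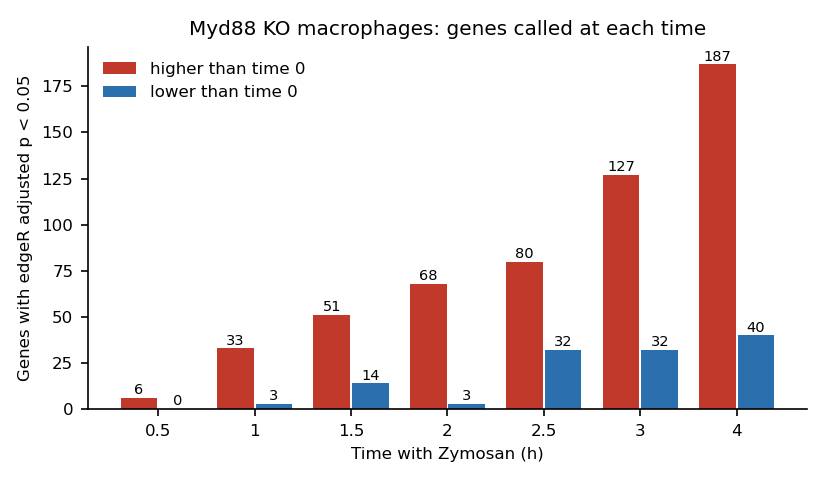
Number of genes higher (up) and lower (down) in KO Zymosan wells than at time 0 at each of the 7 times in hours, edgeR adjusted p under 0.05. With both KO plates in the fit, higher genes outnumbered lower ones at every time, with 6 and 0 at 0.5 h and 187 and 40 at 4 h. Without KO replicate 1, lower genes outnumbered higher ones at 0.5, 1, 1.5 and 2.5 h.

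For more counts per library, the wells of a plate were also summed into 3 classes, called early for 0.5 and 1 h, middle for 1.5 and 2 h, and late for the remaining times. Over 10562 genes, 37 were higher and 2 lower early (0.369% called), 147 higher and 27 lower in the middle class (1.65%), and 353 higher and 115 lower late (4.43%). Of the 395 genes higher in any class, 37 had their highest mean CPM over the 2 plates at 0.5 or 1 h. For 62 it was at 1.5 or 2 h and for 296 at 2.5 to 4 h, with 210 of the 296 at 4 h. The same wells picked these genes and the late class gave the most calls, so that split is partly set by the choice. This limit also holds for the times of highest level given for the lists. The early total of 39 was 330 without KO replicate 1, and without a WT plate it was 25. The middle total of 174 became 92 or 93 without a WT plate, and the late total of 468 became 280 or 281. The late sums set directly against the early ones gave 399 calls, which became 646 without KO replicate 1 and 212 or 220 without a WT plate.

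Immediate early genes, which encode transcription factors and phosphatases made within minutes of a signal, were higher in the first hour. Of the 23 tested, 10 were higher early: Fos, Junb, Egr1, Egr2, Ier2, Ier3, Btg2, Dusp1, Dusp2 and Zfp36, where 0.35% of all genes were called higher. Their median log2 change was 1.83 early, 0.55 in the middle class and 0.28 late, beside −0.11, −0.11 and −0.10 over all genes. Each of the 11 members called higher in any class was highest at 0.5 or 1 h. In the late wells set directly against the early ones, 0 immediate early genes were higher and 9 lower, where 0.956% of all genes were called lower.

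Fos, a subunit of the AP-1 transcription factor, read 1364, 393, 137, 107, 89.8, 130 and 175 CPM at 0.5, 1, 1.5, 2, 2.5, 3 and 4 h in KO replicate 1, against 127 CPM at time 0. In KO replicate 2 the same times gave 389, 227, 172, 80.1, 73.7, 139 and 189 CPM, against 173 CPM at time 0. Both plates were highest at 0.5 h, and from 2 h on the wells lay near or below time 0. The 0.5 h rise was 2.54 ± 0.49 (log2 change ± SE, adjusted p = 0.00147) and the early rise 2.20 ± 0.38 (adjusted p = 7.91e-05). Without KO replicate 1 these were 1.19 (adjusted p = 0.47) and 1.03 (adjusted p = 0.3), so the call of Fos rests on that plate.

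Dusp1, a phosphatase that switches off MAP kinases, was highest at 1 h. It read 107, 879.6, 53.4, 58.6, 17.3, 38.0 and 62.9 CPM over the 7 times in KO replicate 1 and 202, 744, 123, 48.8, 41.5, 77.5 and 40.3 CPM in KO replicate 2, against 36.9 and 43.7 CPM at time 0. The 1 h wells stood apart from every other well on both plates. The 1 h rise was 4.27 ± 0.56 (adjusted p = 8.68e-10), and the late wells were below the early ones by −2.82 ± 0.39 (adjusted p = 3.37e-08). Zfp36, which speeds the decay of cytokine transcripts, had the same 1 h maximum, at 1064 and 731 CPM against 103.8 and 128 CPM at time 0, and an early rise of 2.18 ± 0.28 (adjusted p = 3.51e-09). Id3, an inhibitor of helix-loop-helix factors, was at 215 and 303 CPM at 0.5 h and 553 and 378 CPM at 1 h, against 36.2 and 31.7 CPM at time 0, an early rise of 3.33 ± 0.32 (adjusted p = 3.73e-15). The time 0 wells labelled Zymosan held more Id3 than the others, 84.2 and 162 CPM against a median of 32.6 CPM over the 24 KO time 0 wells. Against those 2 wells alone, the middle and late changes of Id3 were −0.02 and −0.47 in place of 1.69 and 1.21. As given below, Id3 was lower with Zymosan than with Pam3Cys, R848 and CpG late. It was also lower than with TDB in the middle class, so its rise was not shown to be particular to Zymosan.

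**Figure D2:**
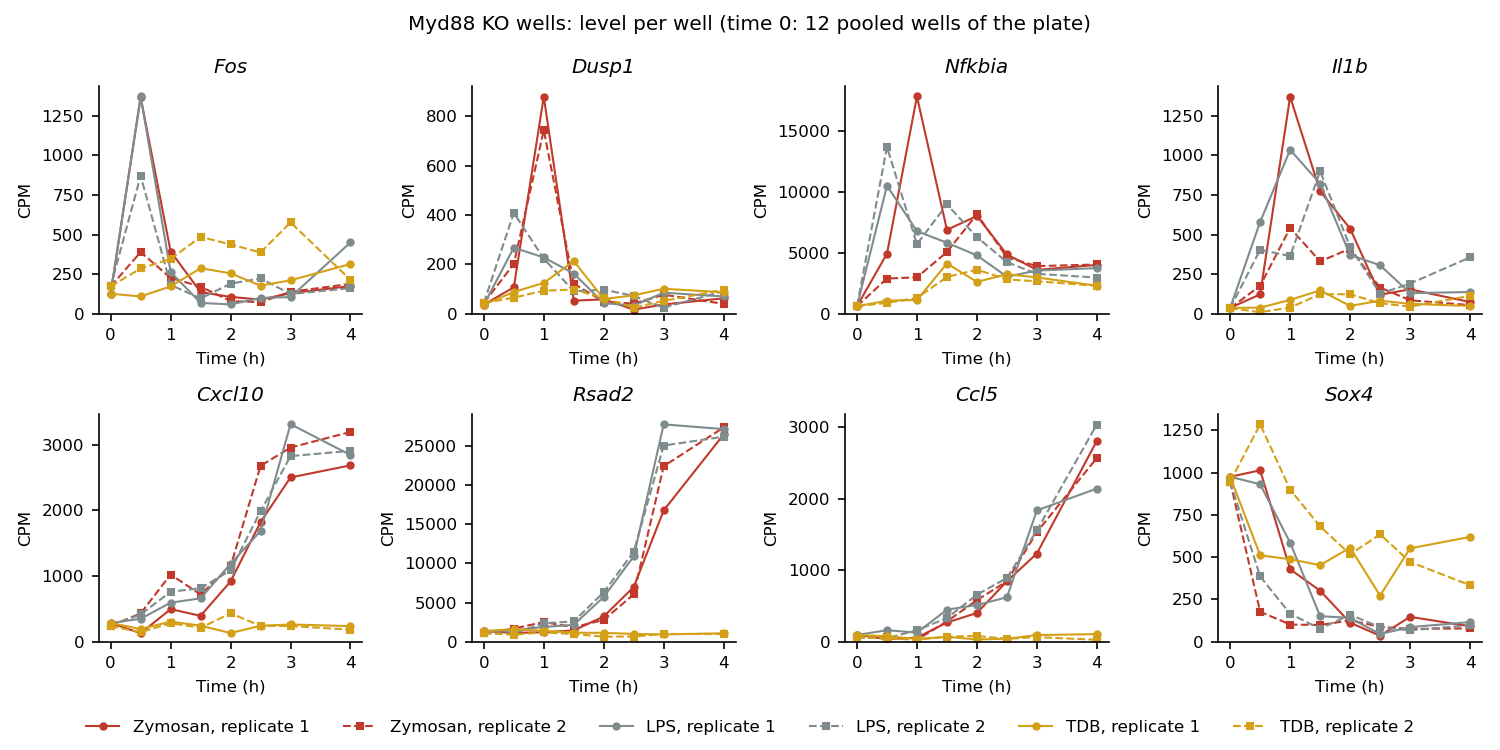
CPM of 8 genes against time in hours in KO wells given Zymosan, LPS or TDB, 1 line per ligand and plate, with the pooled time 0 wells at 0 h. Over the Zymosan times, Fos was highest at 0.5 h and Dusp1 at 1 h, Nfkbia stayed above time 0 throughout, Cxcl10, Rsad2 and Ccl5 were highest at 4 h, and Sox4 fell.

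NF-kB targets were higher from the first hour to the last. Of 40 tested, 11 were higher early, 27 in the middle class (where 1.39% of all genes were called higher) and 27 late (where 3.34% were). The median log2 change of the list was 0.99 early, 2.08 in the middle class and 1.86 late. Time by time, 2, 12, 18, 21, 22, 19 and 19 members were higher from 0.5 to 4 h. The 31 members higher in any class differed in timing: 12 were highest at 0.5 or 1 h, 7 at 1.5 or 2 h and 12 at 2.5 to 4 h. Bcl2a1a, Bcl2a1b and Bcl2a1d, which count among the higher members, are near-identical copies whose 3′ reads counting could split, so their separate counts are uncertain.

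Nfkbia, which encodes the inhibitor that holds NF-kB in the cytoplasm and is itself an NF-kB target, was higher at every time. It read 4942, 17847, 6899, 8034, 4874, 3611 and 4016 CPM over the 7 times in KO replicate 1 and 2898, 3000, 5073, 8183, 4643, 3917 and 4054 CPM in KO replicate 2, against 627 and 626 CPM at time 0. The plates differed most at 1 h and lay close together from 2 h on. The 1 h well of KO replicate 2 was the shallow one, and whether depth had a part in the difference was not tested. The log2 change was 3.39 ± 0.25 early (adjusted p = 4.87e-22), 3.68 ± 0.26 in the middle class (adjusted p = 2.19e-24) and 2.91 ± 0.25 late (adjusted p = 2.05e-18). The gene lies on the minus strand of chr12:55489410-55492647 (mm10). Its promoter window, from 250 bases before to 50 after the start (RefSeq, GRCm38.p6, chr12:55492598-55492897, minus strand, 5′ to 3′), is shown because it holds the kB motif searched for here, in capitals at −29 to −20 from the start.
Nfkbia: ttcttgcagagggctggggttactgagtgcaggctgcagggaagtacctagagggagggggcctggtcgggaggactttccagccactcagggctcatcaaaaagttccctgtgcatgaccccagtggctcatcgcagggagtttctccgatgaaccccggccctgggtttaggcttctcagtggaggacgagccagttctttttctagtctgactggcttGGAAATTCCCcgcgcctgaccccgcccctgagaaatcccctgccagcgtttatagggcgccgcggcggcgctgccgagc

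The kB motif was GGGA, any base, TT, any base and CC on either strand and occurs in 1.19935% of 32851 promoter windows of this length. Among genes with a window in the table, it was present for 4 of 28 higher early (14.2857%), 13 of 114 higher in the middle class (11.4035%) and 14 of 263 higher late (5.32319%), beside 135 of 7974 genes tested (1.693%). These shares describe letters in a window and say nothing of binding.

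Il1b and Cxcl2, which encode a fever cytokine and a neutrophil chemokine, rose and declined within the 4 h. Il1b read 123, 1370, 774, 538, 121, 155 and 74.5 CPM over the 7 times in KO replicate 1 and 177, 542, 331, 411, 166, 85.5 and 55.4 CPM in KO replicate 2, against 37.7 and 35.8 CPM at time 0. Both plates were highest at 1 h and lowest at 4 h, yet the 4 h wells remained above time 0. The change was 3.64 ± 0.43 early (adjusted p = 1.62e-09) and 3.92 ± 0.43 in the middle class (adjusted p = 9.79e-11), and the late wells were lower than the early ones by −1.98 ± 0.41 (adjusted p = 0.000684). The late change was 1.67 ± 0.41 (adjusted p = 0.00516). It was 1.69 and 1.70 without WT replicate 1 or 2 (adjusted p = 0.15 and 0.14), and late against early was −1.95 and −1.92 (adjusted p = 0.077 and 0.082). Cxcl2 read 590, 2062, 659, 408, 104, 92.2 and 158 CPM in KO replicate 1 and 394, 592, 233, 397, 115, 112 and 138 CPM in KO replicate 2, against 31.3 and 34.5 CPM at time 0. Its early rise of 4.65 ± 0.49 (adjusted p = 4.65e-11) exceeded its late one of 2.08 ± 0.46 (adjusted p = 0.00113), a difference of −2.57 ± 0.45 (adjusted p = 4.18e-05).

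Further inflammatory transcripts gave less stable calls or few counts. Tnf was 147, 709 and 110.5 CPM at 0.5, 1 and 1.5 h in KO replicate 1 and 227, 315 and 178 CPM in KO replicate 2, against 53.1 and 54.3 CPM at time 0. Its early rise was 2.57 ± 0.52 (adjusted p = 0.00221), and without WT replicate 1 or 2 it was 2.56 and 2.55 (adjusted p = 0.39 and 0.41). Il12b, a subunit of interleukin-12 and interleukin-23, had 46 counts in the middle class, a rise of 3.51 ± 0.75 (adjusted p = 0.00185). Without KO replicate 1 that rise was 2.06 (adjusted p = 0.36), and without WT replicate 1 or 2 it was 3.50 (adjusted p = 0.15). Il6 had 0, 0 and 2 counts in the early, middle and late classes and Nos2 had 0, 0 and 2, so no change of either was measurable at this depth.

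Some NF-kB targets were still well above time 0 at 4 h. Cd40, a co-stimulatory receptor, read 13.2, 48.7, 130, 221, 231, 369 and 421 CPM over the 7 times in KO replicate 1 and 5.05, 101, 147, 223, 428, 315 and 567 CPM in KO replicate 2, against 19.4 and 27.7 CPM at time 0. The 0.5 h wells lay below time 0 and every well from 1 h on lay above it. The rise was 3.14 ± 0.42 in the middle class (adjusted p = 4.9e-09) and 4.26 ± 0.43 late (adjusted p = 1.88e-14). Icam1, an adhesion molecule for leukocytes, reached 626 and 529.5 CPM at 2 h and 414 and 481 CPM at 4 h, against 75.2 and 46.2 CPM at time 0, a late rise of 3.27 ± 0.36 (adjusted p = 1.31e-12). The late call of Cd40 and of Icam1 was kept in each of the 12 alternatives run.

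Feedback inhibitors were higher alongside these targets, 8 of 18 tested early, 9 in the middle class and 10 late, where 0.35%, 1.39% and 3.34% of all genes were higher. Their median log2 changes were 1.18, 1.85 and 1.72. Several belong to more than 1 of the lists, Nfkbia and Tnfaip3 among them. Socs3, which blocks cytokine receptor signalling, read 13.2, 247, 217, 322, 93.2, 73.2 and 6.98 CPM over the 7 times in KO replicate 1 and 50.5, 126, 85.8, 101, 13.8, 29.4 and 40.3 CPM in KO replicate 2, against 5.54 and 2.28 CPM at time 0. Its rise was 5.65 ± 0.53 in the middle class (adjusted p = 1.73e-14). Tnfaip3 (A20), a brake on NF-kB signalling, was at 657 and 1059 CPM at 1 h and 102 and 186 CPM at 4 h, against 45.0 and 64.2 CPM at time 0. The middle rise of Tnfaip3 was 3.16 ± 0.38 (adjusted p = 1.81e-10). Its time 0 wells labelled Zymosan held 120 and 240 CPM, the highest of the 12 on each plate, and against those wells alone the late change was 0.24 in place of 1.79. Errfi1, an inhibitor of the epidermal growth factor receptor, was highest at 1.5 h, at 194 and 312.5 CPM against 9.80 and 5.58 CPM at time 0, a middle rise of 4.49 ± 0.56 (adjusted p = 3.76e-10).

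Genes that make the zymosan receptors and their signalling chain were called in part. Of 20 genes of the receptors and the Syk-Card9 route, 1 was higher early, 3 in the middle class and 5 late, where 0.35%, 1.39% and 3.34% of all genes were, and 0 were lower in any class. The late median log2 change of the list was 0.15, beside −0.10 over all genes. Clec4e (Mincle), a C-type lectin receptor for fungal and mycobacterial glycolipids, was highest at 4 h on both plates. It read 94.3, 229, 289.7, 693, 666, 952 and 1283 CPM over the 7 times in KO replicate 1 and 146, 227, 386, 850.0, 1050.3, 1050.1 and 1687 CPM in KO replicate 2, against 56.0 and 86.6 CPM at time 0. All 14 wells lay above both time 0 values. The rise was 3.22 ± 0.33 in the middle class (adjusted p = 1.17e-13) and 4.21 ± 0.34 late (adjusted p = 2.11e-19). Tlr2 was higher late by 2.86 ± 0.37 (adjusted p = 8.52e-10), at 347 and 237 CPM at 4 h against 42.4 and 35.3 CPM at time 0. The calls of the adaptor Malt1 (1.83 ± 0.48, adjusted p = 0.00731), the lectin Clec4d (0.83 ± 0.26, adjusted p = 0.0435) and the kinase Prkcd (0.86 ± 0.26, adjusted p = 0.0272) were less stable. Malt1 lost it without WT replicate 1 or 2 (1.85 and 1.86), and Clec4d and Prkcd lost it without any 1 of the 4 plates (0.82 to 0.91 for Clec4d and 0.85 to 0.95 for Prkcd). Of 15 genes of the TLR4 and TRIF route, 3 were higher late, namely Cd14, Ikbke and Tank, with a median of −0.11. Cd14, a co-receptor that hands LPS to TLR4 and also serves TLR2, was higher by 1.81 ± 0.24 (adjusted p = 4.36e-09), at 1057 and 954 CPM at 4 h against 316 and 294.5 CPM at time 0. Tlr4 was at −1.69 (adjusted p = 0.112).

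Of 17 late inflammatory genes tested, 6 were higher late, where 3.34% of all genes were, among them Mmp14 and Irg1. Mmp14, a membrane-bound matrix metalloprotease, had no count at 1 h on either plate and read 22.9, 117, 176, 228 and 359 CPM from 1.5 to 4 h in KO replicate 1 and 36.8, 146, 115, 278 and 337 CPM in KO replicate 2, against 9.37 and 12.2 CPM at time 0. The late rise was 4.80 ± 0.57 (adjusted p = 3.8e-10). Mmp14 in the time 0 wells labelled Zymosan was 0 and 108 CPM, against a median of 4.99 CPM over the 24 KO time 0 wells. Irg1, which makes itaconate in activated macrophages, reached 1003 and 999.7 CPM at 4 h against 78.8 and 77.2 CPM at time 0. The late rise of Irg1 was 3.53 ± 0.47 (adjusted p = 3.02e-08). Its time 0 wells labelled Zymosan held 91.8 and 282 CPM, against a median of 73.1 CPM. Outside the lists, Pde4b, a phosphodiesterase that degrades cyclic AMP, was highest at 1 h (793 CPM) in KO replicate 1 and at 2 h (446 CPM) in KO replicate 2, against 38.1 and 27.7 CPM at time 0. Its middle rise was 3.86 ± 0.34 (adjusted p = 3.54e-17) and its late rise 3.42 ± 0.34 (adjusted p = 5.88e-15). Flrt3, a transmembrane guidance receptor, was near 0 at time 0 (4.05 and 1.27 CPM) and stood at 173 and 223 CPM at 2 h, a middle rise of 5.79 ± 0.80 (adjusted p = 1.2e-07).

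IRF3 targets and interferon-stimulated genes rose later. IRF3 is the transcription factor activated downstream of TRIF, and interferon-stimulated genes are the antiviral genes that follow it. Of the 12 IRF3 primary targets tested, 1 was higher early, 3 in the middle class and 11 late, with median log2 changes of 0.29, 0.93 and 3.42. Each of the 11 was highest at 4 h, a time within the class that picked them. Of 53 interferon-stimulated genes, 0 were higher early, 1 in the middle class and 35 late, with median changes of 0.04, 0.33 and 1.55. From 0.5 to 4 h the number higher was 0, 1, 1, 3, 7, 10 and 11 among the IRF3 targets and 0, 0, 0, 0, 1, 10 and 24 among the interferon-stimulated genes, where 0.059%, 0.325%, 0.502%, 0.669%, 0.787%, 1.25% and 1.84% of all genes were called higher. Late against early, 9 IRF3 targets and 28 interferon-stimulated genes were higher and 0 lower, where 2.82% of all genes were called higher.

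The promoter windows of 3 of these genes follow, because each holds the interferon-stimulated response element (ISRE) searched for here, in capitals. The Cxcl10 window also holds the kB motif shown for Nfkbia, at −103 to −94. All run 5′ to 3′ and are from RefSeq (GRCm38.p6): Cxcl10 on the minus strand of chr5:92348840-92349139 with the ISRE at −213 to −204, Rsad2 on the minus strand of chr12:26456403-26456702 with the ISRE at −120 to −111, and Ifit1 on the plus strand of chr19:34640639-34640938 with ISREs at −104 to −95 and −85 to −76.
Cxcl10: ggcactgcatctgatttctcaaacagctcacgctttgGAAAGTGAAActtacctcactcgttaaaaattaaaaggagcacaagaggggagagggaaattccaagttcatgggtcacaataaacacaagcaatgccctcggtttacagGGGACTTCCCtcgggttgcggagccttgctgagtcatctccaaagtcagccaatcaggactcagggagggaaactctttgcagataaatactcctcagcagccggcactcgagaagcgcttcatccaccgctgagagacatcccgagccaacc
Rsad2: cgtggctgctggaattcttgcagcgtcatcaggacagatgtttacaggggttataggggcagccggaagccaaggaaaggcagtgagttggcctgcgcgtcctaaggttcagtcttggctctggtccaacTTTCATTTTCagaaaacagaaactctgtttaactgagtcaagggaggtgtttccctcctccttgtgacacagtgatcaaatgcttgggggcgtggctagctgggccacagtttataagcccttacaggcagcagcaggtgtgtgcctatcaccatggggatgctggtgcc
Ifit1: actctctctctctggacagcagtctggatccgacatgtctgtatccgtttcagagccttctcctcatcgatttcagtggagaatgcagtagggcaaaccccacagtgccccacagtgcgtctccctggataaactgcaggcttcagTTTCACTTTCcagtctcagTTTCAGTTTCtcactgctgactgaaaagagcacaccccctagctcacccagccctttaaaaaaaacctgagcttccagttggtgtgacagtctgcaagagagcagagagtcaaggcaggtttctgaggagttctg

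The ISRE was GAAA, 2 bases of any kind and GAAA on either strand and occurs in 3.44282% of the 32851 windows. Among genes with a window, it was present for 2 of 28 higher early (7.14286%), 7 of 114 higher in the middle class (6.14035%) and 44 of 263 higher late (16.73%), beside 320 of 7974 genes tested (4.01304%). Of 83 genes lower late, 3 held it (3.61446%). As for kB, the match is a description of the letters.

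Cxcl10, a chemokine for T cells and a target of both IRF3 and NF-kB, read 127, 494, 393, 916, 1819, 2499.7 and 2684 CPM over the 7 times in KO replicate 1 and 429, 1021, 717, 1146, 2676, 2955 and 3193 CPM in KO replicate 2, against 284 and 237 CPM at time 0. Both plates were highest at 4 h, and every well from 2 h on lay above both time 0 values. The change was 1.84 ± 0.50 in the middle class (adjusted p = 0.0345) and 3.56 ± 0.53 late (adjusted p = 6.9e-07). The middle call was lost without KO replicate 2 (1.43, adjusted p = 0.31) and without WT replicate 1 or 2 (1.84 and 1.83, adjusted p = 0.27 and 0.28). Cxcl10 in the time 0 wells labelled Zymosan was 408 and 905 CPM, against a median of 248 CPM over the 24 wells. The late call was kept in all 12 alternatives.

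Rsad2 (viperin), an antiviral radical SAM enzyme, was highest at 4 h on both plates. Through 2 h it lay within the range of the 24 single KO time 0 wells, 546 to 4063 CPM. It read 1125, 1189, 1429, 3215, 6984, 16787 and 26502 CPM over the 7 times in KO replicate 1 and 1666, 2508, 1832, 2776, 6044, 22446 and 27398 CPM in KO replicate 2, against 1339 and 1055 CPM at time 0. It first passed the test at 2.5 h (2.51 ± 0.44), and the late change was 4.21 ± 0.44 (adjusted p = 1.03e-11). Ifit1, which binds viral RNA ends, read 2589, 4145 and 6658 CPM at 2.5, 3 and 4 h in KO replicate 1 and 2289, 5694 and 6809 CPM in KO replicate 2, against 584 and 635 CPM at time 0, a late change of 3.24 ± 0.43 (adjusted p = 2.69e-08). Its 2.5 h wells lay below the highest single KO time 0 well, which held 2784 CPM. Ccl5, a chemokine for T cells and monocytes, stood below time 0 or near it through 1 h, at 35.1 and 55.6 CPM in KO replicate 1 and 70.7 and 25.2 CPM in KO replicate 2 against 92.0 and 58.9 CPM at time 0. From 1.5 h it read 267, 399.6, 842, 1231 and 2805 CPM in KO replicate 1 and 282, 578, 843, 1531 and 2566 CPM in KO replicate 2. The middle rise of Ccl5 was 2.57 ± 0.44 (adjusted p = 3.82e-05), the late rise 4.74 ± 0.48 (adjusted p = 2.35e-12) and late against early 5.35 ± 0.54 (adjusted p = 8.13e-12).

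Irf1, a transcription factor of both the NF-kB and the interferon responses, was the single IRF3 list member higher early. It read 136, 608, 313, 613, 535, 556 and 582 CPM over the 7 times in KO replicate 1 and 80.8, 189, 227, 449, 332, 337 and 516 CPM in KO replicate 2, against 55.4 and 51.5 CPM at time 0. Its early rise was 2.09 ± 0.35 (adjusted p = 1.33e-05), and without KO replicate 1 it was 1.16 (adjusted p = 0.15), so the early call of Irf1 rests on that plate. The late rise of Irf1 was 3.36 ± 0.36 (adjusted p = 2.26e-13). The list member that did not pass late was Ifnb1, the interferon beta gene itself, with 0 counts early, 0 in the middle class and 6 late, against 41 counts in the deeper time 0 sum.

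The other interferon-linked lists also had members higher late, where 3.34% of all genes were. Guanylate-binding proteins and immunity-related GTPases attack the vacuoles of intracellular microbes. Of 16 such genes, 14 were higher late, and the list had a median of 2.96. All 14 were highest at 4 h, a time within the class that picked them. Iigp1 stood at 345, 900.1 and 1720.4 CPM at 2.5, 3 and 4 h in KO replicate 1 and 401, 1406 and 2002 CPM in KO replicate 2, against 105 and 83.5 CPM at time 0, a late rise of 3.92 ± 0.61 (adjusted p = 1.72e-06). The highest single KO time 0 well held 461 CPM of Iigp1, above both 2.5 h wells. Gbp2 reached 687 and 690.0 CPM at 4 h against 68.6 and 56.9 CPM at time 0, a rise of 2.97 ± 0.50 over the late class (adjusted p = 9.63e-06). Of 8 PYHIN genes, which include sensors of DNA, 7 were higher late. Mnda, a nuclear member, was at 1737 and 1675 CPM at 4 h against 135 and 125 CPM at time 0, and was already higher in the middle class (1.49 ± 0.28) before the late 3.43 ± 0.29 (adjusted p = 1.92e-18). Tgtp1 and Tgtp2, and the PYHIN genes among themselves, are close copies whose counts may be shared. Of 18 class I antigen presentation genes, 7 were higher late, among them the peptide transporter Tap1 (2.21 ± 0.44, adjusted p = 0.000136). Genes of the interferon receptor chain that were higher late included Stat2, Irf7 and Usp18. Irf7, which amplifies interferon production, was at 568 and 534 CPM at 4 h against 171 and 156 CPM at time 0 (1.32 ± 0.28, adjusted p = 0.000358).

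**Figure D3:**
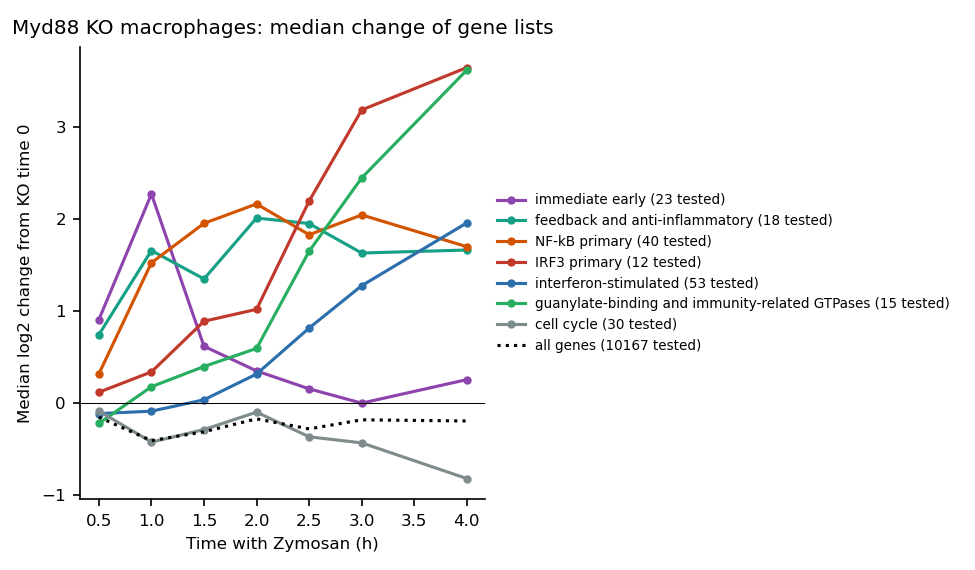
Median log2 change from time 0 of 7 gene lists and of all genes tested, against time in hours after Zymosan in KO wells, with no error bars because each point is a median over genes. The immediate early list was highest at 1 h (2.27), the NF-kB list stayed between 1.52 and 2.16 from 1 to 4 h, and the IRF3, interferon-stimulated and GTPase lists were highest at 4 h (3.64, 1.96 and 3.62), beside −0.20 over all genes at 4 h.

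In those medians, genes with no count in the Zymosan wells enter at their fitted change. With such genes at the bound that 3 counts allow, the GTPase median at 0.5 h was −0.10 in place of −0.22 and the cell cycle median at 4 h was −0.65 in place of −0.82, while the 4 h medians of the IRF3, interferon-stimulated and GTPase lists kept their values. Of 30 cell cycle genes 0 were called late, and of 9 LXR and lipid efflux genes 0, where 4.43% of all genes were called, so counts of 0 in lists of this size are near the background.

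With both KO plates in the fit, fewer genes fell than rose. Without KO replicate 1, more genes were lower than higher at 0.5, 1, 1.5 and 2.5 h and in the early class. Sox4, a transcription factor of progenitor cells, read 1013, 428, 301, 112, 34.5, 146 and 90.8 CPM over the 7 times in KO replicate 1 and 177, 101, 98.0, 125, 87.5, 74.8 and 78.1 CPM in KO replicate 2, against 975 and 946 CPM at time 0. The 0.5 h wells of the plates differed, and every well from 1 h on lay below both time 0 values. The late change was −3.28 ± 0.65 (adjusted p = 0.000203). Sox4 in the time 0 wells labelled Zymosan was 1031 and 114 CPM, against a median of 983 CPM over the 24 wells. Samd4, an RNA-binding repressor of translation, had 7 counts in the late class against 553 at time 0, a change of −4.03 ± 0.71 (adjusted p = 8.98e-06). Stk17b, a kinase linked to apoptosis, had 15 late counts against 547 at time 0 (−2.95 ± 0.52, adjusted p = 8.44e-06) and none at 3 h, where it was at least 15.7-fold lower over the 2 plates. Stk17b and Samd4 kept their late calls in all 12 alternatives.

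Some falls were transient. Klf4 and Hhex, 2 further transcription factors, were lowest between 1.5 and 2.5 h. Hhex read 112, 66.1, 11.4, 29.3, 10.4, 62.4 and 58.2 CPM over the 7 times in KO replicate 1 and 126, 75.6, 0, 6.97, 0, 80.2 and 50.4 CPM in KO replicate 2, against 76.1 and 91.9 CPM at time 0. Its middle change was −2.43 ± 0.59 (adjusted p = 0.0078), which was −1.67 without KO replicate 2 (adjusted p = 0.36), and its late change was −0.59 (adjusted p = 0.766). For Klf4 the middle change was −2.25 ± 0.65 (adjusted p = 0.0478), lost without KO replicate 2 (−1.77) or either WT plate (−2.25 and −2.26), and the late change was −0.18. Among the macrophage identity genes, Cebpb and Msr1 were higher late, and those lower included Maf and Ccr2. Ccr2, a monocyte chemokine receptor, changed by −1.52 ± 0.38 (adjusted p = 0.00456), and by −1.27 without KO replicate 2 (adjusted p = 0.17). The summed level of the identity list, given above, was lower in the late sums than at time 0, and its part in these results was not tested.

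To set the response against handling and time on the plate, the Zymosan wells were compared with the time-matched KO wells given Pam3Cys, R848 or CpG, ligands that signal through MyD88 and were chosen knowing that they gave few calls in KO. Early, 62 genes were higher and 8 lower (0.663% of 10562, with 0.587% higher and 0.0757% lower), among them 12 NF-kB targets, 11 immediate early genes and 8 feedback genes, with 0 interferon-stimulated genes. Nfkbia was higher by 3.16 ± 0.17, Il1b by 3.78 ± 0.33 and Dusp1 by 2.98 ± 0.29. Late, 548 genes were higher and 171 lower (6.81%, with 1.62% lower), with 11 of 12 IRF3 targets, 41 of 53 interferon-stimulated genes, 14 of 16 GTPases, 8 of 8 PYHIN genes and 29 of 40 NF-kB targets higher, where 5.19% of all genes were called higher. The early total of 70 was 661 without KO replicate 1 and 34 without either WT plate, and the late total of 719 was 482 to 730 without a plate. In the late sums Rsad2 was at 18013 and 20833 CPM in the Zymosan wells, against 814 to 2393 CPM over the 6 sums of the other 3 ligands (4.24 ± 0.29). Clec4e was at 1006 and 1306 CPM in the Zymosan wells, against 62.6 to 178 CPM (3.91 ± 0.23, adjusted p = 1.46e-30). Id3 went the other way late, −1.51 ± 0.27 (adjusted p = 7.74e-06).

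LPS, whose receptor can signal through TRIF besides MyD88, was the next ligand compared. The LPS libraries were shallower late, at 647181 and 591164 counts against 1088068 and 988432 for Zymosan in KO replicates 1 and 2. In the late sums 0 of 10562 genes differed between KO Zymosan and KO LPS by edgeR, 637 had an unadjusted p under 0.05, and DESeq2 fitted to these groups alone called 10. Leaving out KO replicate 1, edgeR called 8, and without any other plate 0. Rsad2 was at 18013 and 20833 CPM with Zymosan and 22859 and 21637 CPM with LPS (−0.24, 95% interval −0.9956 to 0.52). Cxcl10 was at 2391 and 2989.6 CPM with Zymosan and 2665 and 2615 CPM with LPS (−0.01, interval −0.96 to 0.93), and Ccl5 at 1749 and 1796 CPM with Zymosan and 1624 and 1832 CPM with LPS (−0.00, interval −0.81 to 0.80). For Nfkbia the interval was −0.25 to 0.66 around 0.20. These intervals leave room for changes of a log2 unit either way in some genes. The medians of the IRF3, interferon-stimulated, GTPase and NF-kB lists were −0.04, 0.06, 0.04 and 0.02, beside 0.02 over all genes. Il1b was at 114 and 91.1 CPM with Zymosan and 182 and 225 CPM with LPS, a difference of −1.03 (interval −1.84 to −0.22, adjusted p = 0.716). The difference of Il1b without KO replicate 1 was −1.30, from a single library per group. Il12b had 17 counts with Zymosan and 55 with LPS (−2.45, interval −4.01 to −0.88, adjusted p = 0.563).

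The start of the 2 responses was also compared, after the data had been seen. At 0.5 h Nfkbia was at 4942 and 2898 CPM with Zymosan and 10522 and 13703 CPM with LPS, a difference of −1.71 ± 0.32 (adjusted p = 0.00221). It was the single gene called of 10167 (0.00984%), with 549 at an unadjusted p under 0.05. The call was lost without KO replicate 2 (−1.14, adjusted p = 0.71) and in DESeq2 (−1.71, adjusted p = 0.35). There were 27 genes called without KO replicate 1 and 2 without KO replicate 2. Cxcl2 was at 590 and 394 CPM with Zymosan and 1913 and 1384 CPM with LPS (−1.81 ± 0.48, adjusted p = 0.311), and Il1b at 123 and 177 CPM with Zymosan and 580.1 and 404 CPM with LPS (−1.82, adjusted p = 0.6). Fos was at 1364 and 389 CPM with Zymosan and 1371 and 870.1 CPM with LPS (−0.42, interval −1.35 to 0.50). At 1 h Nfkbia was at 17847 and 3000 CPM with Zymosan and 6785 and 5718 CPM with LPS, where the plates disagree in direction. Over the early sums 0 genes were called by edgeR and 0 by DESeq2, with 903 at an unadjusted p under 0.05. Leaving out KO replicate 1 gave 125 early calls, and leaving out KO replicate 2 gave 7.

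**Figure D4:**
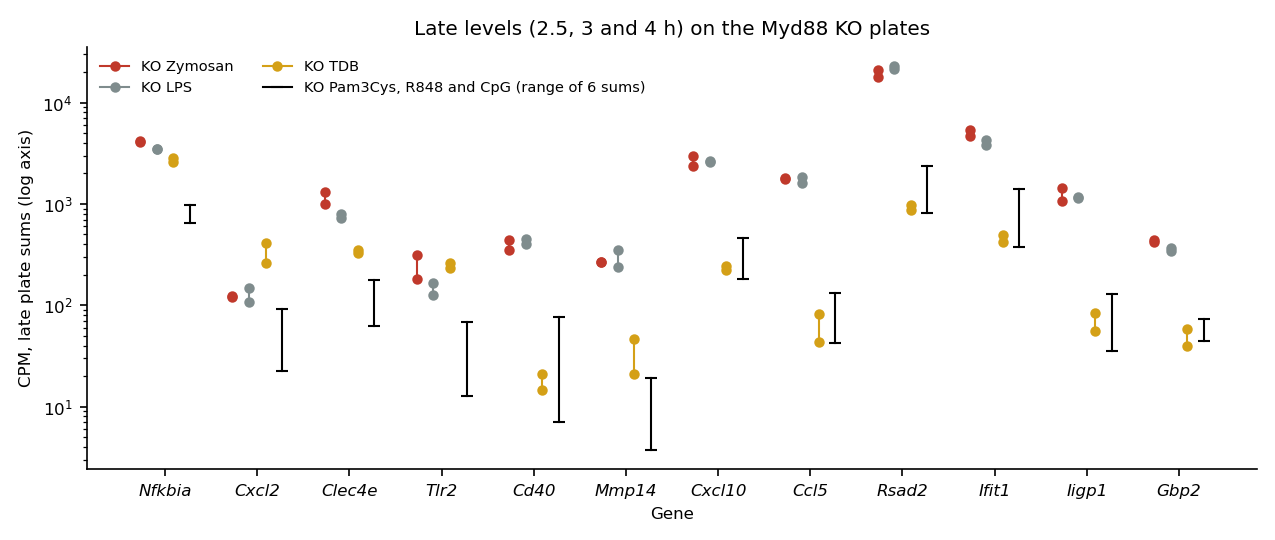
Late-class CPM (2.5, 3 and 4 h summed, log axis) of 12 genes on the KO plates. Zymosan, LPS and TDB have 1 point per plate, and a bar spans the range of the Pam3Cys, R848 and CpG sums. For Cxcl10, Ccl5, Rsad2, Ifit1 and Cd40 the KO Zymosan points lie beside those of KO LPS and above those of KO TDB.

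TDB gave lower levels of the interferon-linked genes in KO than Zymosan did. This comparison too was made after the data had been seen. In the late sums 236 genes were higher and 60 lower with Zymosan than with TDB (2.8% of 10562), and 11 of 12 IRF3 targets, 34 of 53 interferon-stimulated genes, 13 of 16 GTPases and 8 of 8 PYHIN genes were among the higher, where 2.23% of all genes were called higher. Of the 40 NF-kB targets, 13 were. Rsad2 was at 18013 and 20833 CPM with Zymosan and 985 and 866 CPM with TDB (4.57 ± 0.45, adjusted p = 1.48e-12). Cxcl10 was at 2391 and 2989.6 CPM with Zymosan and 246 and 222 CPM with TDB (3.70 ± 0.54, adjusted p = 4.62e-07). At time 0 Rsad2 was at 1339 and 1055 CPM and Cxcl10 at 284 and 237 CPM, so the TDB wells of both genes lay near or below time 0. Clec4e was at 1006 and 1306 CPM with Zymosan and 352.5 and 329.6 CPM with TDB (1.94 ± 0.31, adjusted p = 1.41e-06). Nfkbia was at 4107 and 4132 CPM with Zymosan and 2815 and 2615 CPM with TDB (0.78 ± 0.23, adjusted p = 0.0435), a call lost without KO replicate 1 (0.89), KO replicate 2 (0.74), WT replicate 1 (0.79) or WT replicate 2 (0.82). Vcam1, an adhesion molecule, was at 98.3 and 161 CPM with Zymosan and 2.08 and 2.74 CPM with TDB (5.83 ± 0.91, adjusted p = 7.88e-07). The late total of 296 was 173 without either WT plate. Of the 236 higher genes 170 have a promoter window, and 42 of those hold the ISRE (24.7059%) while 3 hold the kB motif (1.76471%).

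Genes higher with TDB included antioxidant ones. Of 13 NRF2 targets, which detoxify reactive molecules, 0 were higher and 4 lower with Zymosan than with TDB late: Hmox1, Gclm, Gclc and Srxn1, where 0.568% of all genes were called lower. Gclm, a subunit of the enzyme that makes glutathione, was at 202 and 261 CPM with Zymosan and 1129 and 1099 CPM with TDB (−2.09 ± 0.31, adjusted p = 7.77e-08), beside 142 and 139.9 CPM at time 0. Srxn1, which repairs oxidised peroxiredoxins, was at 83.6 and 94.1 CPM with Zymosan and 448 and 375 CPM with TDB (−2.03 ± 0.38, adjusted p = 5.08e-05). Against time 0 the Zymosan wells had 2 of the 13 higher late, Txnrd1 and Sqstm1, where 3.34% of all genes were. The nuclear receptor Nr4a2 had 0 counts with Zymosan and 54 with TDB, at least 18.2-fold lower over the 2 plates. In the middle class 109 genes were higher and 19 lower with Zymosan than with TDB (1.21%), with 17 of 40 NF-kB targets higher and 1 of 53 interferon-stimulated genes, where 1.03% of all genes were called higher. The middle total of 128 was 230 without KO replicate 1 and 41 or 42 without a WT plate. Socs3 was at 279 and 95.5 CPM with Zymosan and 13.5 and 8.58 CPM with TDB in the middle class (4.25 ± 0.60, adjusted p = 2.43e-07). Id3 was at 122 and 75.5 CPM with Zymosan and 363 and 338 CPM with TDB (−1.67 ± 0.31, adjusted p = 0.000228), a call lost without KO replicate 2 (−1.44, adjusted p = 0.063).

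Whether Myd88 altered the response was asked of the change from time 0 in KO set against the change in WT. Early, 0 of 10562 genes differed by edgeR and 0 by DESeq2, and 332 had an unadjusted p under 0.05. Leaving out KO replicate 1, edgeR called 190, and without KO replicate 2 it called 1. Late, 2 genes differed by edgeR (0.0189%), both lower in KO, 284 had an unadjusted p under 0.05, and DESeq2 called 125. Without KO replicate 1 or 2 edgeR called 8 or 4, and without a WT plate 0. Over the late lists the median difference was 1.00 for IRF3 targets, 1.00 for the GTPases, 0.42 for interferon-stimulated genes, −0.16 for NF-kB targets and −0.66 for feedback genes, with 0 members called in each, beside −0.02 over all genes.

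For genes whose changes did not pass, the levels of both genotypes are given side by side. Il1b was at 114 and 91.1 CPM late in KO Zymosan wells and 5401 and 6046 CPM in WT Zymosan wells, and at time 0 at 37.7 and 35.8 CPM in KO and 485 and 604 CPM in WT. The difference of its late changes was −1.97 ± 0.56 (adjusted p = 0.732), and without KO replicate 1 or 2 it was −2.01 and −1.84. DESeq2 called it at −1.94. Cxcl2 was at 121 and 123 CPM late in KO Zymosan wells and 2968 and 3188 CPM in WT Zymosan wells, against 31.3 and 34.5 CPM at time 0 in KO and 310.3 and 400.3 CPM in WT, a difference of changes of −1.28 ± 0.61 (interval −2.48 to −0.08, adjusted p = 1). Rsad2 was at 18013 and 20833 CPM late in KO Zymosan wells and 12262 and 12394 CPM in WT Zymosan wells, a difference of changes of 1.26 ± 0.55 (interval 0.19 to 2.34, adjusted p = 1). Nfkbia was at 4107 and 4132 CPM in KO and 9989 and 8206 CPM in WT, against 627 and 626 CPM in KO and 954 and 1079 CPM in WT at time 0 (−0.50 ± 0.33). The genotypes thus had different starting levels of Il1b and Cxcl2, on different plates.

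**Figure D5:**
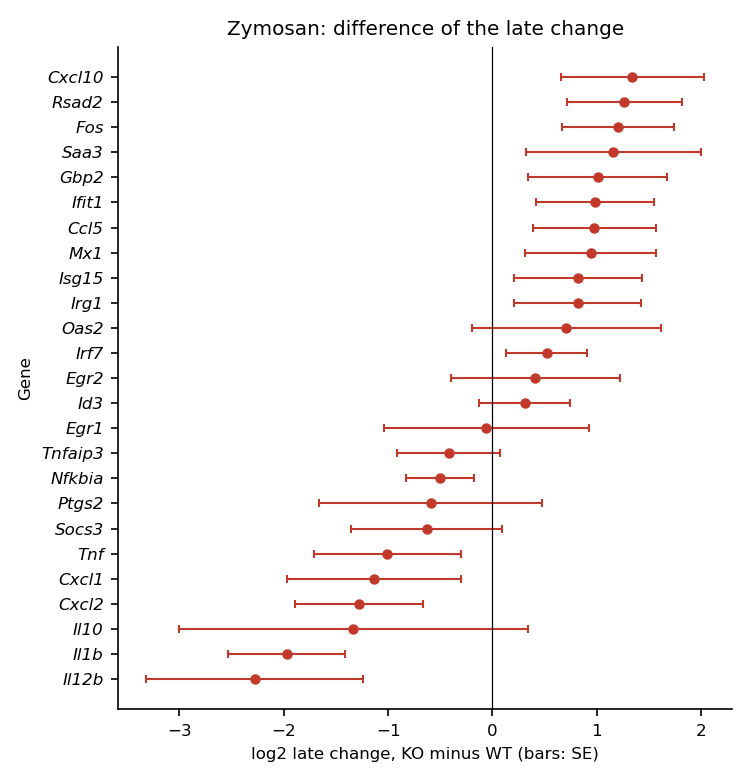
Difference of the late Zymosan change from time 0, KO minus WT, in log2 units, for 25 fixed response genes with more than 3 counts in each group compared, with bars of 1 SE on either side. The difference was above 0 for 14 genes and below 0 for 11, with Cxcl10 at 1.34 and Il12b at −2.28, and none of the 25 passed the edgeR test.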

How the data were processed

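The deposited values are whole-number read counts per gene and well from a transcript 3′ end assay, made by the authors and stored as 1 column per well. Per the submitters' processing notes the tools and builds named are BWA and mm10. The aligner version, annotation, counting rule, strand and use of molecular identifiers were not given in the sources used here. There are 23481 genes in the table, 7381 of them without a count anywhere, and Rn45s, a ribosomal RNA gene, took 4.63% to 18.5% of the KO Zymosan counts. No replicate pair was identical, and chi-square per degree of freedom between plates was 4.27 to 12.5.

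Counts were tested with edgeR 4.0.16 (R 4.3.3), quasi-likelihood test with TMM scaling, filterByExpr at a count minimum of 10, and Benjamini-Hochberg adjustment over all genes tested in a comparison. Wells were tested by time (340 libraries in 170 groups, 10167 genes), and as sums per plate over the early, middle and late times (148 libraries in 74 groups, 10562 genes). The median trended dispersion was 0.377 by time and 0.156 for the sums, with medians of 108 and 56.7 prior degrees of freedom. CPM are counts scaled to a common library total. Log2 changes are coefficients fitted with edgeR's default prior count. A prior count of 2 was used only for the log CPM per plate, from which the direction on each plate was read. Genes at 0 in all libraries of a group have only a bound, from 3 counts over the group. Intervals and floors cover counting error only where they come from counts. The procedure was tested on simulated data with known changes. Those data held no plate effects, so they do not bear on the shifts seen when a plate was left out.

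Of 20 comparisons 16 were planned, and 4 (against KO LPS at 0.5 h and early, against TDB middle and late) were added after the data had been seen. Pam3Cys, R848 and CpG were chosen knowing that they gave few calls in KO. The 24 gene lists and the wells were chosen with earlier results of these data known. The 217 named genes are the fixed response genes; in each comparison the 5 highest and 5 lowest changes (12 and 12 for late against time 0) among called genes with at least 30 counts and 1 direction on both plates; up to 5 members of each list with the smallest late p; and up to 4 genes first called at each time. Other genes in the text are list members that a count refers to. The 12 alternatives include DESeq2 1.42.0, and the plate as a replicate block. Plates are named in the labels and pair the wells of a genotype, and the correlation of plate deviations over 15 pairs was 0.0199 to 0.128. Results for some items are not reported here.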

Additional observations from a re-analysis of the deposited data

Results flagged for a closer look

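The late Zymosan change differed between KO and WT in the edgeR test for 2 genes. For Pou2f2, a transcription factor of the Oct family, the difference was −3.053 on the log2 scale (SE 0.62, adjusted p = 0.0304). Its late level was 22.98 and 22.3 CPM in KO Zymosan wells and 285 and 359 CPM in WT Zymosan wells, against 106 and 99.8 CPM at time 0 in KO and 189 and 176 CPM in WT. Against the pooled time 0 wells the direction was down in KO and up in WT on both plates of each genotype. The KO time 0 wells labelled Zymosan held 89.3 and 0 CPM of Pou2f2, against a median of 90.8 CPM over the 24 wells, so the late well sum of KO replicate 2 lay above its own labelled well. With the labelled time 0 wells alone the difference of Pou2f2 was −1.89 (adjusted p = 0.545), and with the plate-wide background subtracted it was −3.78 (adjusted p = 0.302). Without WT replicate 1 or 2 the difference in Pou2f2 was −3.19 and −2.82, and the call was lost.

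For Rhou, a small GTPase, the fitted difference was −7.08 (adjusted p = 0.0432). It rests on 1 count in the late KO Zymosan wells and so depends on the prior count of the fit. The late level of Rhou was 0.92 and 0 CPM in KO Zymosan wells and 76.7 and 87.6 CPM in WT Zymosan wells, against 6.61 and 8.38 CPM at time 0 in KO and 6.73 and 8.84 CPM in WT. The call of Rhou was lost without KO replicate 2, without either WT plate, with the labelled time 0 wells alone (adjusted p = 0.53) and with the plate-wide background subtracted (adjusted p = 0.261). Genotype and plate cannot be told apart for either gene.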

How the results depend on the processing

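Of 20 counts of called genes, the replicate block (plate within genotype) kept every one within 1.5 times, with 494 late, 186 middle and 43 early against time 0. DESeq2 on the compared groups called 15 at 0.5 h, 277 middle, 884 late, 172 late against early, 17 and 471 against Pam3Cys, R848 and CpG early and late, 2 against LPS at 0.5 h, 10 against LPS late, 73 against TDB middle, and 125 for KO minus WT late. With KO libraries only the counts from 1 to 4 h were 18, 22, 33, 43, 71 and 123, then 23 early, 87 middle, 275 late, 217 late against early, 34 early against Pam3Cys, R848 and CpG, and 45 and 168 against TDB middle and late. Without a filter there were 11 at 0.5 h, 64 at 1 h, 98 at 1.5 h, 5, 10 and 3 against LPS at 0.5 h, early and late, and 1 and 8 for KO minus WT early and late. With the plate-wide background subtracted the 7 times gave 3, 19, 19, 36, 58, 81 and 144, LPS at 0.5 h and early 0 and 6, TDB middle 85, and KO minus WT late 0. Without wells under 150000 counts there were 126 at 1.5 h, 175 at 2.5 h, and 2, 11 and 1 against LPS at 0.5 h, early and late. RLE scaling called 1 against LPS early, and the Zymosan-labelled time 0 well alone gave 42 at 1.5 h and 73 early. The causes of these shifts were not tested.

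Leaving out 1 plate at a time, the counts ran from 3 to 50 at 0.5 h, 18 to 328 at 1 h, 18 to 202 at 1.5 h, 28 to 71 at 2 h, 39 to 134 at 2.5 h, 64 to 146 at 3 h and 112 to 238 at 4 h. They ran from 25 to 330 early, 92 to 220 middle, 280 to 412 late and 212 to 646 late against early. Against Pam3Cys, R848 and CpG they were 34 to 661 early and 482 to 730 late, against LPS 1 to 27 at 0.5 h, 0 to 125 early and 0 to 8 late, against TDB 41 to 230 middle and 173 to 308 late, and for KO minus WT 0 to 190 early and 0 to 8 late.

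Of single named genes, 14002 results kept their call status, 1967 lost a call, 179 gained one and 9 changed sign. Those 9 were Egr1 at 1 h without KO replicate 1 (−0.1717, and 4.028 without KO replicate 2), Cxcl3 at 1.5 h and Saa3 at 3 h without KO replicate 2 (−1.858 and −1.21, and 5.706 and 5.609 without KO replicate 1), Tnfaip3 at 4 h (−0.06778), Id3 middle (−0.0177) and late (−0.4661), and B3galnt1 late (0.3841) against the Zymosan-labelled time 0 well, and Osbpl11 (0.671) and Pank1 (3.166) late against early without KO replicate 1 (−2.039 and −7.663 without KO replicate 2). At 79333 counts, the shallowest of the 14 wells is in the early class, which gave 43 calls in place of 39 once wells under 150000 counts were left out.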
